A study of Mus musculus with 4 samples.

Results

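A group of 10 transcription factor genes is described here, chosen by name: Gata1, Gata2, Gata3, Gfi1, Gfi1b, Tal1, Lmo2, Lyl1, Klf1 and Zfpm1. All 10 had an entry of their own among the 23275 gene entries of the deposited table, and 9 were among the 12683 entries that the authors tested. RNA was polyadenylated and came from cells with B220 and CD43 on their surface, a phenotype of early B-lineage cells, sorted from the marrow of C57BL/6 mice 8 weeks old. Hdac3-deleted mice had the genotype Hdac3F/-Mb1cre+/-, with 1 conditional and 1 null allele, and wild-type mice had Hdac3+/+Mb1cre+/-. Both genotypes thus carried the Mb1cre recombinase, which is expressed from early B-cell stages onward. A sorted cell of Hdac3-deleted mice that never expressed it would keep its conditional allele. Such a cell would still carry the null allele, unlike a wild-type cell. There were 2 libraries per genotype, each from a pool of 2 mice, and the study asked what loss of histone deacetylase 3 does to V(D)J recombination and B-cell development.

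GATA factors are zinc finger proteins that bind GATA sequences, and they set the erythroid, mast cell and T-cell programmes of blood. TAL1 and its relative LYL1 are basic helix-loop-helix proteins that pair with E proteins, and the adaptor LMO2 joins them to GATA factors in a complex held by LDB1. KLF1 activates globin genes, FOG1, made from Zfpm1, is the cofactor of GATA1, and GFI1 and GFI1B are repressors that recruit the LSD1-CoREST complex. In early B cells most of the erythroid members are normally silent, while LMO2 and LYL1 are present in many progenitors.

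Each level is a value that the authors computed for a genotype from its 2 libraries together, in FPKM, a fragment count divided by transcript length and by library size. Fold changes are Hdac3-deleted over wild type, and a gene was called changed where the authors' q-value was under 0.05. The 95% interval given with a log2 fold change takes its standard error as the fold change divided by the authors' test statistic. The interval thus carries the error of the authors' model, with whatever spread that model saw between the 2 libraries of a genotype. That spread could not be computed separately, since values per library were not used here. The number of fragments per library is unknown. Hdac3 itself was at 22.0 FPKM in Hdac3-deleted and 46.8 FPKM in wild-type cells, with q = 0.0016 in the authors' deposited table. The 12 B-lineage markers summed to 4008 FPKM in Hdac3-deleted and 2440 FPKM in wild-type cells, and the 12 plasmacytoid dendritic cell markers to 3737 FPKM in Hdac3-deleted and 2985 FPKM in wild-type cells, so the sorted populations held RNA typical of both. Of the B-lineage markers 7 rose and 0 fell in the authors' Cuffdiff test, led by the recombinase gene Rag1 at 372 FPKM in Hdac3-deleted and 77.8 FPKM in wild-type cells. By a normal approximation to the test statistic, described with Gfi1, 2 of them were called higher. Of the plasmacytoid markers 0 were called in the authors' test, with 2 higher at an unadjusted p under 0.05 and 0 by the approximation. All 12 markers of each set had positive log2 fold changes, with medians of 0.63 for the B-lineage and 0.36 for the plasmacytoid markers. Over all tested entries, 2.81% were called higher and 4.14% lower in the authors' test.

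The group held 3 high and 7 low genes. Lmo2, Lyl1 and Zfpm1 stood at 54.0, 47.8 and 43.7 FPKM in Hdac3-deleted cells, against 41.5, 46.0 and 44.3 FPKM in wild-type cells. Together these 3 held 93.3% of the summed FPKM of the group in Hdac3-deleted and 89.1% in wild-type cells. The other 7 genes summed to 10.5 FPKM in Hdac3-deleted and 16.2 FPKM in wild-type cells, and none of them exceeded 9.38 FPKM. Lmo2 lay above 85.8% of tested entries in Hdac3-deleted cells and above 81.0% in wild-type cells, whereas Tal1 lay above 3.01% in Hdac3-deleted and 1.19% in wild-type cells. By level, the order in Hdac3-deleted cells was Lmo2, Lyl1, Zfpm1, Gfi1, Gata3, Gfi1b, Tal1, Klf1, Gata2 and Gata1. In wild-type cells it was Lyl1, Zfpm1, Lmo2, Gfi1, Gfi1b, Gata3, Gata2, Klf1, Gata1 and Tal1. With 1 value per genotype, whether neighbours in either order differ beyond the spread of libraries could not be examined.

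**Figure D1:**
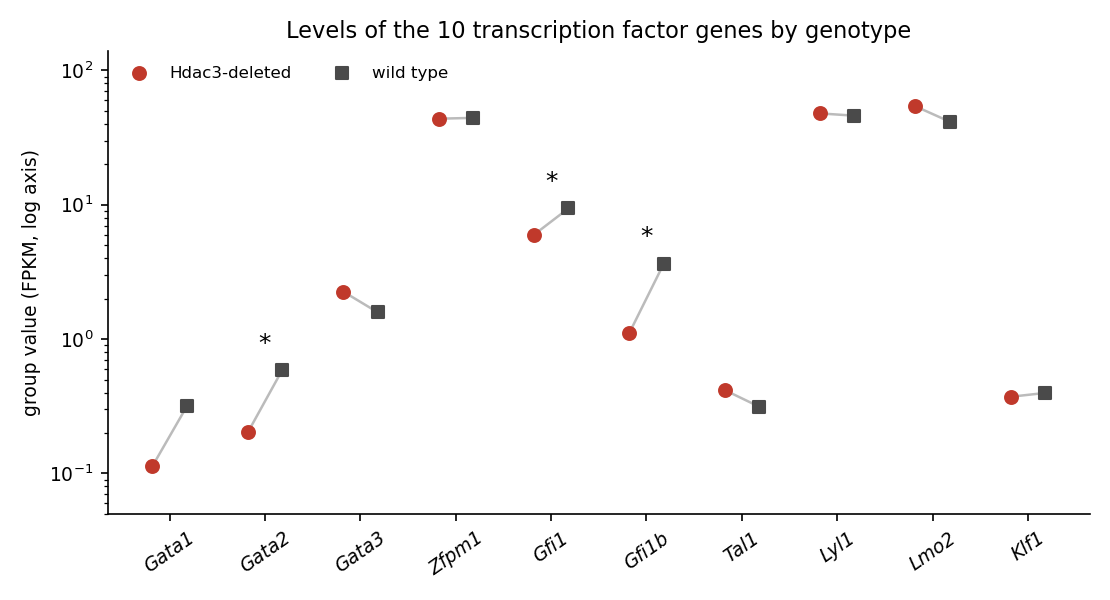
Group value in FPKM, on a log axis, of each of the 10 genes in Hdac3-deleted cells (circles, left) and wild-type cells (squares, right), 1 value per genotype with no replicate error; an asterisk marks a q-value under 0.05 in the authors' deposited table. Zfpm1, Lyl1 and Lmo2 sit above 40 FPKM in both genotypes, and Gata2, Gfi1 and Gfi1b are lower in Hdac3-deleted cells.

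Against wild-type cells, 3 of the 9 tested genes fell in Hdac3-deleted cells and 0 rose in the authors' Cuffdiff test. At an unadjusted p under 0.05 the counts were also 3 lower and 0 higher. Gfi1b fell most, to 1.11 FPKM, then Gata2, to 0.202 FPKM, and Gfi1 fell to 5.98 FPKM. Among all 12683 tested entries, 6.95% were called, of which 4.14% of all were lower and 2.81% higher. The median log2 fold change of the 9 tested genes was -0.02, beside 0.03 over all tested entries, with 4 positive and 5 negative values between -1.71 and 0.51. In sorted bulk populations, fewer cells of a type and less RNA per cell cannot be told apart. Transcripts of neutrophil granules were also lower in Hdac3-deleted cells, where 15 of 18 tested fell. Their summed level was 2742 FPKM in Hdac3-deleted and 11096 FPKM in wild-type cells, and none was at 0. The part of such cells in the fall of the 3 genes was not tested.

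**Figure D2:**
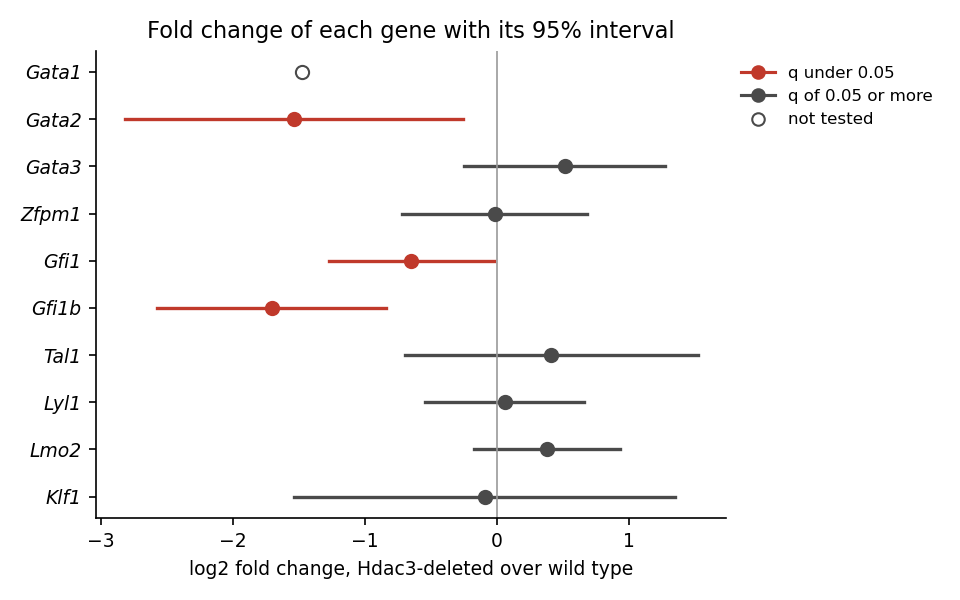
Log2 fold change of each gene, Hdac3-deleted over wild type, with bars for the 95% interval derived from the authors' test statistic; Gata1, an open circle, was not tested and has no interval. The intervals of Gata2, Gfi1 and Gfi1b lie below 0, that of Gfi1 reaching -0.03, and the 6 others span 0.

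The repressor pair moved in 1 direction, and more so for Gfi1b. Gfi1b, which restrains stem cells and is needed for red cell and platelet formation, stood at 1.11 FPKM in Hdac3-deleted cells and 3.63 FPKM in wild-type cells. It was thus 3.27-fold lower, a log2 fold change of -1.71 (95% interval -2.58 to -0.84), and the authors' deposited table gives q = 0.0016. Gfi1, which acts in neutrophil and lymphoid development, stood at 5.98 FPKM in Hdac3-deleted cells and 9.38 FPKM in wild-type cells. That is 1.57-fold lower, a log2 fold change of -0.65 (95% interval -1.27 to -0.03), with q = 0.0457 in the authors' deposited table. Summed, the pair was at 7.09 FPKM in Hdac3-deleted and 13.0 FPKM in wild-type cells. Gfi1 made up 84.3% of that sum in Hdac3-deleted cells, against 72.1% in wild-type cells, since Gfi1b fell further, and no test of that shift could be made with 1 value per genotype. Of the 881 called entries, 27 had a q-value at least as large as that of Gfi1, which therefore lay near the threshold. Two-sided p-values read from that statistic as a normal deviate, adjusted by Benjamini-Hochberg over all tested entries, call 2.64% of entries lower. They were 0.439 for Gfi1 and 0.00515 for Gfi1b, and thus ended the call for Gfi1.

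Among the GATA factors, Gata2 fell and Gata3 did not pass the test. Gata2, a factor of stem cells, mast cells and basophils, stood at 0.202 FPKM in Hdac3-deleted cells and 0.587 FPKM in wild-type cells, 2.90-fold lower. Its log2 fold change was -1.54 (95% interval -2.82 to -0.26), with q = 0.0312 in the authors' deposited table. Both values are low: Gata2 lay above 0.85% of tested entries in Hdac3-deleted cells and above 5.51% in wild-type cells. Adding 1 FPKM to both values gave -0.40 on the log2 scale, and the normal approximation gave an adjusted p of 0.270 for Gata2, which ended the call. Gata1, the master factor of red cells, was at 0.113 FPKM in Hdac3-deleted and 0.316 FPKM in wild-type cells, and the authors' deposited table marks it as not tested. Gata2 thus exceeded Gata1 by 1.78 times in Hdac3-deleted cells and by 1.86 times in wild-type cells. Gata3, a factor of T cells and innate lymphoid cells, had 2.26 FPKM in Hdac3-deleted cells against 1.59 FPKM in wild-type cells. Its log2 fold change of 0.51 (95% interval -0.25 to 1.27) did not pass, with q = 0.329 in the authors' deposited table. Gata3 supplied 87.7% of the summed level of the 3 GATA genes in Hdac3-deleted cells and 63.7% in wild-type cells. That sum was 2.57 FPKM in Hdac3-deleted and 2.49 FPKM in wild-type cells. No test of the shift in share could be made with 1 value per genotype, and Gata1 and Gata2 are low. Zfpm1, the FOG1 cofactor of GATA1, was 385 times as high as Gata1 in Hdac3-deleted cells and 140 times in wild-type cells. These ratios rest on the low Gata1 values, which were not tested. The log2 fold change of Zfpm1 itself was -0.02 (95% interval -0.72 to 0.68).

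The stem cell complex genes Lmo2, Lyl1 and Tal1, and the erythroid gene Klf1, did not pass the test in either direction. Lmo2, the bridging adaptor, had 54.0 FPKM in Hdac3-deleted and 41.5 FPKM in wild-type cells, a log2 fold change of 0.38 (95% interval -0.17 to 0.93) with q = 0.303 in the authors' deposited table. Lyl1 had 47.8 FPKM in Hdac3-deleted and 46.0 FPKM in wild-type cells, a log2 fold change of 0.06 (95% interval -0.54 to 0.66). Its paralog Tal1 had 0.418 FPKM in Hdac3-deleted and 0.314 FPKM in wild-type cells, and the log2 fold change of 0.41 had an interval of -0.70 to 1.52. Lyl1 was therefore 114 times as high as Tal1 in Hdac3-deleted cells and 146 times as high in wild-type cells. Klf1, the globin activator, had 0.372 FPKM in Hdac3-deleted and 0.397 FPKM in wild-type cells, with a log2 fold change of -0.09 (95% interval -1.54 to 1.35). The table thus limits the change of these low genes little: a level 2-fold higher lies within the intervals of Tal1 and Klf1, and a level 2-fold lower within that of Klf1.

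The 3 genes that fell differ in how common such calls are at their level. Of tested entries under 1 FPKM in both genotypes, where Gata2 lies, 3.57% were called lower. At 1 to 5 FPKM in the higher genotype, where Gfi1b lies, the share was 6.34%, and at 5 to 20 FPKM, where Gfi1 lies, it was 3.72%. A total of 216 tested entries had a lower log2 fold change than Gfi1b and 260 a lower one than Gata2, against 837 for Gfi1.

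**Figure D3:**
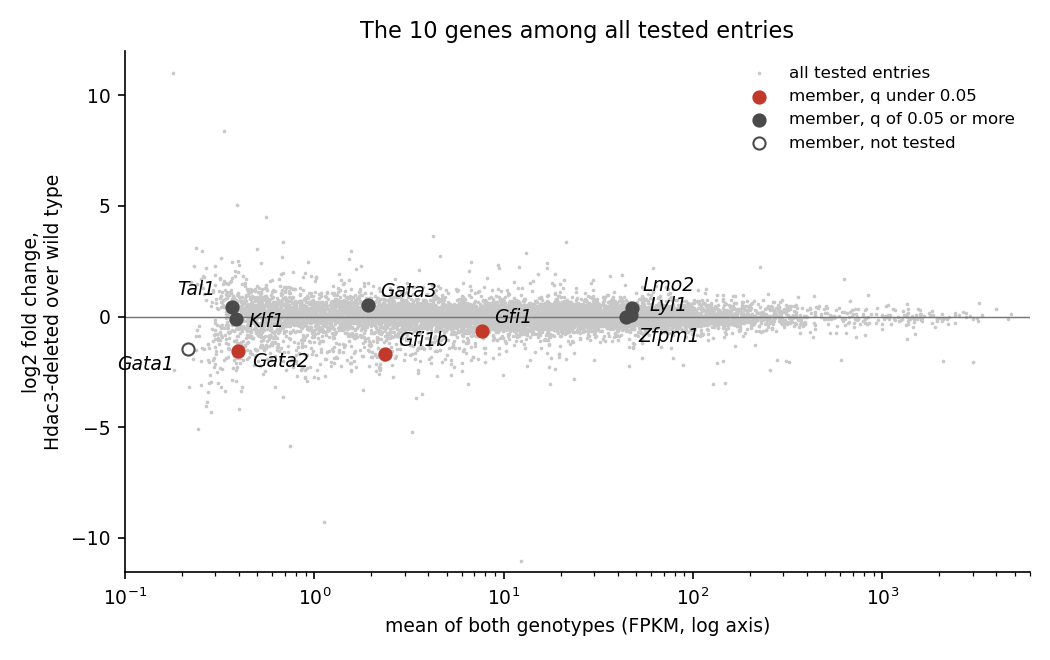
Log2 fold change, Hdac3-deleted over wild type, against the mean of the 2 group values in FPKM on a log axis; grey dots are all tested entries with a value above 0 in both genotypes and large dots the 10 genes. Gata2 and Gfi1b lie low in the cloud at -1.54 and -1.71, and Lmo2, Lyl1 and Zfpm1 lie within its dense part.

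Promoter sequence is shown for the 3 genes that fell, and for Klf1, whose window held 4 of the 6 motifs searched and which did not pass the test. Each window is from RefSeq on GRCm38.p6, the assembly of mm10, and runs from 250 bases before to 50 bases after an annotated start. Windows were found for 9 of the 10 genes, and none was found for Lmo2. Capitals mark matches on either strand. The motif searched for GATA factors was AGATAA, and that for GFI proteins was AATCAC. The E-box preferred by TAL1 was searched as CAGATG, and the motif of KLF1 as CACACCC. The core of the first, written GATAA, and that of the second, written AATC, were added after the windows had been seen, and each lies inside its longer form.
Gfi1b, chr2:28621933-28622232, minus strand: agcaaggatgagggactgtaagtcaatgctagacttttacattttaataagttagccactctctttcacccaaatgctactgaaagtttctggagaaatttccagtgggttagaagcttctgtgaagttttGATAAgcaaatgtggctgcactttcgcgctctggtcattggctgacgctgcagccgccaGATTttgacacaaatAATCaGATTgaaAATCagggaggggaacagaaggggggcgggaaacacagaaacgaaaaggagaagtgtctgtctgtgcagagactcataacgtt
Gfi1, chr5:107724294-107724593, minus strand: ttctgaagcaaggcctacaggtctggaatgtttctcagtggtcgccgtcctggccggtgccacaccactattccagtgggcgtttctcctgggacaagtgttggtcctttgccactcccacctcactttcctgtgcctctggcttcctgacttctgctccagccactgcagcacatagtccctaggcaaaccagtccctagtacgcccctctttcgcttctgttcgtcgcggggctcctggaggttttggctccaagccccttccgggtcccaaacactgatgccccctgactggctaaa
Gata2, chr6:88198414-88198713, plus strand: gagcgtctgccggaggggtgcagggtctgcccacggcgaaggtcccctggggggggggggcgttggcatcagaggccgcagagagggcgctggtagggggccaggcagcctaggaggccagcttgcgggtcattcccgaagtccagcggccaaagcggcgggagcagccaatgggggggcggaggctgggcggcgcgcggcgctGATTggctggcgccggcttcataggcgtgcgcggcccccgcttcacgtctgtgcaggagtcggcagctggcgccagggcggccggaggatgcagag
Klf1, chr8:84901732-84902031, plus strand: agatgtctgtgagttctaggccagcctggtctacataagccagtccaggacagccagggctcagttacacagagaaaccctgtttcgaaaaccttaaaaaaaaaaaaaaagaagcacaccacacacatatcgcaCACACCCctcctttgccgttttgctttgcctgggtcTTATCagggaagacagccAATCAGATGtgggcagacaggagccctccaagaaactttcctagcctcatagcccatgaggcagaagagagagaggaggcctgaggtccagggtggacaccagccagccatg

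The Gfi1b window held 1 GATAA core, from base -119 to -115 with the start as base 0, and 4 AATC cores, the nearest of which began at base -33. AATC cores occurred in 73.1% of all 32851 promoter windows and GATAA in 25.4%, so neither is a rare find. The printed Gfi1 window held none of these letters, and the printed Gata2 window held 1 AATC core on the opposite strand. The window of a second annotated Gfi1 start, not printed, held 1 AATC core from base -200 to -197. Among the 12 windows of the group, AATC was in 5 and GATAA in 3. In Klf1 the AATC core and the CAGATG box share 1 base. None of the 4 longer motifs was in a printed window of the 3 genes that fell. AGATAA was in 11.2% of all windows and in that of the upstream start of Tal1, CACACCC in 7.95% and in those of Klf1, Lyl1 and Gata1, and CAGATG in 17.2% and in those of Klf1 and Tal1. AATCAC was in 10.4% of all windows and in none of the 12 windows of the group. The base composition of the 3 windows differed, with 44.3% G and C in Gfi1b, 58.0% in Gfi1 and 73.7% in Gata2.

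The entries of the deposited table do not cover every annotated start. The Gata2 entry, chr6:88198664-88207032, begins at the printed proximal start, and a second annotated start lies 4773 bases upstream of it. The Gfi1 entry, chr5:107716655-107724343, likewise leaves out an annotated start 1462 bases upstream, and the Tal1 entry, chr4:115059527-115071755, begins 3101 and 1716 bases downstream of its 2 annotated starts. In the GENCODE annotation of this assembly, Gata1 and Gata3 also reach 10256 and 11434 bases upstream of their entries, and the RefSeq start of Gata1 lies 95 bases upstream. Exons at those outer starts lie outside the entries, and whether their fragments were counted was not tested. The other entries are Gata1 at chrX:7959260-7967815, Gata3 at chr2:9857078-9878600, Gfi1b at chr2:28609450-28621982 and Lmo2 at chr2:103957995-103981878. On chromosome 8 lie Lyl1 at chr8:84701457-84704716, Klf1 at chr8:84901928-84905295 and Zfpm1 at chr8:122282141-122337247. No locus of the 10 overlapped another entry. In the same GENCODE annotation, however, exons of Gfi1 overlap the opposite-strand gene A430072P03Rik, those of Gata3 overlap 9230102O04Rik, listed at 0 in both genotypes, and Gm13256, and those of Lyl1 overlap Nfix. Gata3 and 9230102O04Rik lie on the same strand, so strand would not separate that pair. No source used here says that the libraries kept strand, so fragments of the other pairs cannot be told apart either. Nfix itself was at 1.06 FPKM in Hdac3-deleted and 1.39 FPKM in wild-type cells, far below Lyl1.

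Genes beside the 10 were not called. Within 50 kb of the 10 genes the nearest entries on either side numbered 16, of which 10 were tested, and 0 passed at a q-value under 0.05 in the authors' deposited table. The count was also 0 at an unadjusted p under 0.05 and by the normal approximation. Their log2 fold changes lay between -0.39 and 0.35. Gtf3c5 and Tsc1, on either side of Gfi1b, had log2 fold changes of -0.13 and 0.08. Evi5, 20.5 kb from Gfi1, had 9.93 FPKM in Hdac3-deleted cells and 8.17 FPKM in wild-type cells, with a log2 fold change of 0.28. Hdac6, 11.4 kb from Gata1, was at 8.01 FPKM in Hdac3-deleted and 7.25 FPKM in wild-type cells. No tested gene beside Gfi1b or Gfi1 was called. Of all tested entries 6.95% were called, so a count of 0 of 10 is near the common share. The difference between each gene and its neighbours was not tested.

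Over all tested entries, 2.81% were called higher and 4.14% lower, the shares to set beside the count of each list below. Partners of the TAL1 complex and co-acting blood factors included 1 higher and 0 lower genes of 15 tested. Their median log2 fold change was 0.17. The higher gene was Erg, an ETS factor of stem cells, at 85.2 FPKM in Hdac3-deleted and 38.4 FPKM in wild-type cells, a log2 fold change of 1.15 with q = 0.0016 in the authors' deposited table. Erg, Fli1, Runx1, Lmo2, Lyl1, Tal1 and Gata2 are known to bind together in blood progenitors. Of these 7, Erg rose, Gata2 fell and the others did not pass, among them Fli1 at 47.2 FPKM in Hdac3-deleted and 39.5 FPKM in wild-type cells. Runx1 was at 31.3 FPKM in Hdac3-deleted and 25.7 FPKM in wild-type cells. Ldb1, the scaffold to which LMO2 binds, had 77.4 FPKM in Hdac3-deleted and 59.4 FPKM in wild-type cells and did not pass either.

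Corepressor subunits that GFI and FOG proteins recruit were expressed in both genotypes. None of the 23 tested genes of LSD1-CoREST and NuRD was called in the authors' Cuffdiff test, beside 6.95% of all tested entries. Their log2 fold changes lay between -0.33 and 0.50 with a median of 0.08. At an unadjusted p under 0.05 there was 1 higher gene, Mta3, and by the normal approximation 0. Kdm1a, encoding LSD1, had 38.9 FPKM in Hdac3-deleted and 32.2 FPKM in wild-type cells. The most abundant were Rbbp7, at 128 FPKM in Hdac3-deleted and 157 FPKM in wild-type cells, and Mta2, at 140 FPKM in Hdac3-deleted and 127 FPKM in wild-type cells. The Rbbp7 entry, chrX:162407200-163352564, overlaps 6 other entries, so its level is uncertain. Among 9 other genes of the GATA, FOG, TAL and LMO families, 3 were tested and 1 fell. That gene was Lmo4, a LIM-only relative of Lmo2, at 41.8 FPKM in Hdac3-deleted and 111 FPKM in wild-type cells. It was 2.67-fold lower, with a log2 fold change of -1.42 and q = 0.0016 in the authors' deposited table, whereas Lmo2 had 0.38.

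Genes that mark the cells in which these factors act were split between lineages. Erythroid globin, membrane and surface genes had 12 tested of 27 in the table, with 1 higher, 1 lower and a median log2 fold change of -0.05. Car2, a carbonic anhydrase, fell to 26.3 FPKM in Hdac3-deleted cells, against 54.4 FPKM in wild-type cells, with q = 0.0016 in the authors' deposited table. Hemgn, a nuclear protein of erythroid progenitors, rose to 3.25 FPKM in Hdac3-deleted cells, against 1.77 FPKM in wild-type cells, with q = 0.0342 in the authors' deposited table, and lost its call by the normal approximation. Of the 27 genes, 20 stayed under 1 FPKM in both genotypes, among them Epor, the erythropoietin receptor, at 0.112 FPKM in Hdac3-deleted and 0.129 FPKM in wild-type cells, and Alas2, the erythroid haem enzyme, at 0.287 FPKM in Hdac3-deleted and 0.281 FPKM in wild-type cells. Adult beta-globin transcripts were higher than those of Gata1, Gata2, Klf1 or Tal1 but did not pass the test: the Beta-s entry had 7.37 FPKM in Hdac3-deleted and 5.01 FPKM in wild-type cells, and Hbb-b2 had 2.03 FPKM in Hdac3-deleted and 1.75 FPKM in wild-type cells. These near-identical globin copies can share fragments, so their separate values are uncertain. Car1, an erythroid carbonic anhydrase, had 2.63 FPKM in Hdac3-deleted and 5.16 FPKM in wild-type cells and did not pass either. The 9 haem synthesis enzymes had no called gene and a median of -0.08, led by Urod at 28.6 FPKM in Hdac3-deleted and 33.0 FPKM in wild-type cells. Of 18 megakaryocyte genes, 15 stayed under 1 FPKM in both genotypes, 5 were tested and 0 were called in the authors' Cuffdiff test. For the haem and megakaryocyte lists the counts were also 0 at an unadjusted p under 0.05 and by the normal approximation. With 6.95% of all tested entries called, 0 of 9 and 0 of 5 are near the common share. The integrin Itgb3 was at 8.47 FPKM in Hdac3-deleted and 7.46 FPKM in wild-type cells.

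The 3 granulocyte lists had the lowest medians of the 14 lists. Of 12 tested basophil and mast cell genes, 3 fell and 0 rose, and the median on the log2 scale was -1.46. Prss34, a basophil protease, fell to 1.85 FPKM in Hdac3-deleted cells, against 9.03 FPKM in wild-type cells, and Mcpt8, another, fell to 1.45 FPKM in Hdac3-deleted cells, against 9.05 FPKM in wild-type cells. Hdc, the histamine-forming enzyme, fell to 1.56 FPKM in Hdac3-deleted cells, against 5.04 FPKM in wild-type cells. All 3 have q = 0.0016 in the authors' deposited table. The mast cell proteases Mcpt4, Tpsb2 and Tpsab1 were listed at 0 in both genotypes. The summed level of this list was 122 FPKM in Hdac3-deleted and 110 FPKM in wild-type cells, most of it from the cytokine receptor subunits Csf2rb and Csf2rb2, which did not pass. Csf2rb2 had 70.3 FPKM in Hdac3-deleted and 49.5 FPKM in wild-type cells. Of 5 tested eosinophil genes 2 fell, and the median was -0.89. Prg3, a granule protein, fell to 0.618 FPKM in Hdac3-deleted cells, against 3.80 FPKM in wild-type cells. Il5ra, the interleukin 5 receptor, fell to 0.851 FPKM in Hdac3-deleted cells, against 1.67 FPKM in wild-type cells, a call that the normal approximation did not keep. Among neutrophil granule genes the median was -1.96, and Ltf, encoding lactoferrin, fell 4.28-fold. The part of these cells in the lower Gata2, Gfi1 and Gfi1b values was not tested.

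T-cell and innate lymphoid genes, the setting in which Gata3 acts, had 2 higher and 0 lower of 19 tested and a median of 0.33. Tcf7, a factor of early T cells, had 33.5 FPKM in Hdac3-deleted and 21.4 FPKM in wild-type cells, and Eomes, a factor of NK cells, 22.4 FPKM in Hdac3-deleted and 14.8 FPKM in wild-type cells. By the normal approximation neither was called. Bcl11b, a defining T-cell factor, was at 0.339 FPKM in Hdac3-deleted and 0.275 FPKM in wild-type cells and was not tested. It was among 4 of the 22 list genes that stayed under 1 FPKM in both genotypes. Other T-cell genes were higher in level and did not pass the test. Cd3d, Cd8a and Lck had 6.63, 17.4 and 46.6 FPKM in Hdac3-deleted cells, against 6.82, 16.2 and 47.9 FPKM in wild-type cells. Cd4 and Lat had 104 and 19.3 FPKM in Hdac3-deleted cells, against 79.4 and 13.4 FPKM in wild-type cells. Among the 19 tested genes, 16 log2 fold changes were positive and 3 negative. At an unadjusted p under 0.05, 4 were higher and 0 lower. Stem and early progenitor genes had 4 higher and 0 lower of 13 tested, 2 higher by the normal approximation, and a median of 0.53. The stem cell factor receptor Kit had 27.8 FPKM in Hdac3-deleted and 6.13 FPKM in wild-type cells, while Gata2, often found with it in progenitors, was lower.

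Genes described as repressed by GFI1 or GFI1B did not move as 1 group. Of 14 tested, 3 rose and 2 fell, 7 log2 fold changes were positive and 7 negative, and the median was 0.06. Cdkn1a, a cell cycle inhibitor, rose to 44.9 FPKM in Hdac3-deleted cells, against 14.2 FPKM in wild-type cells. Hoxa9 and Meis1, homeobox factors of progenitors, rose to 3.88 and 4.08 FPKM in Hdac3-deleted cells, against 1.88 and 2.38 FPKM in wild-type cells. Csf1r, the growth factor receptor of monocytes, fell to 1.79 FPKM in Hdac3-deleted cells, against 5.16 FPKM in wild-type cells, and Egr1, an immediate early factor, fell to 6.07 FPKM in Hdac3-deleted cells, against 11.8 FPKM in wild-type cells. Hoxa9 and Meis1 also stand in the stem list, Csf1r marks monocytes, and the calls for Hoxa9 and Meis1 were lost by the normal approximation to the test statistic.

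**Figure D4:**
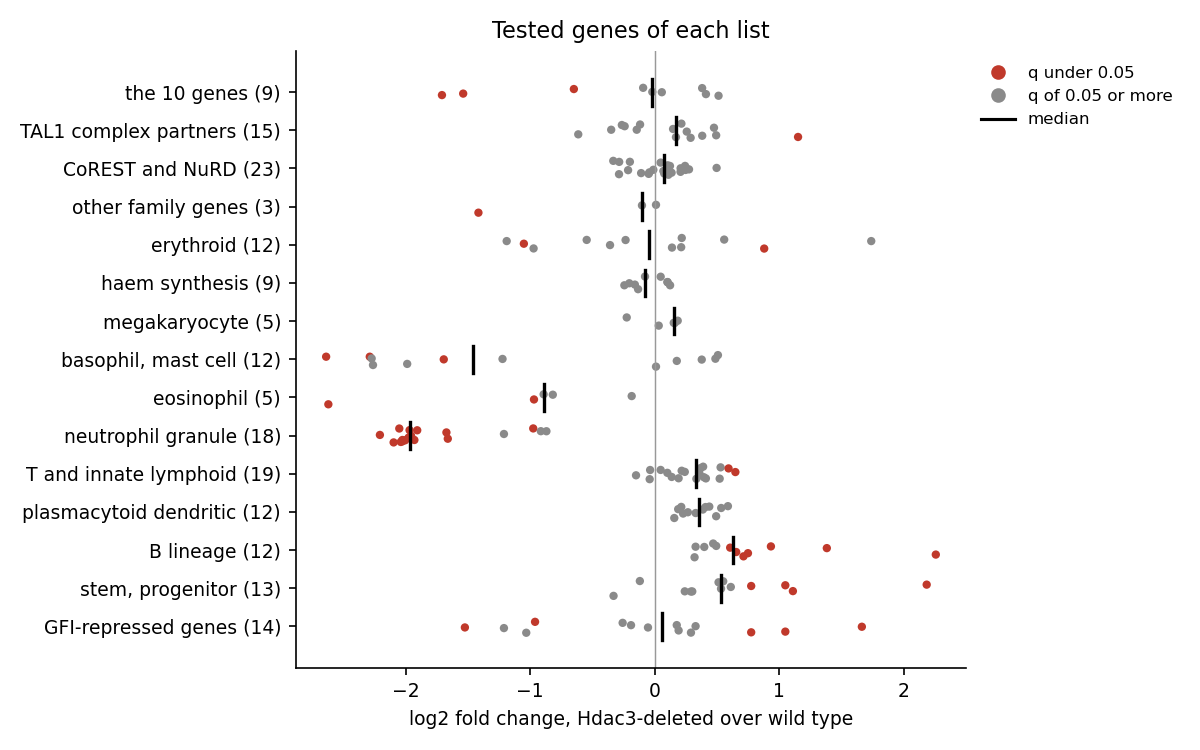
Log2 fold change, Hdac3-deleted over wild type, of each tested gene (dots) in the group and in 14 lists around it, with the median as a black line and the number tested in brackets; red dots have a q-value under 0.05 in the authors' deposited table. The medians run from -1.96 in neutrophil granule genes to 0.63 in B-lineage genes, with the 10 genes at -0.02.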

How the data were processed

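The submitters' processing notes name Trimmomatic 0.32, TopHat2 2.0.11, Cuffdiff 2.1.1 and the mm10 build. Their options, annotation and library scaling were not given in the sources used here. Per the labels' protocols, Trizol RNA was enriched for poly(A) and made into Illumina libraries. The deposited table gives 1 FPKM value per gene and genotype, combining 2 libraries. It also holds the authors' test statistic, a score with no fixed range, and the authors' p-value and q-value. Adjusting the deposited p-values by Benjamini-Hochberg over 12683 tested entries returned the q-values within 5.27e-07. The smallest p-value, 5e-05, is shared by 396 entries, which q = 0.0016 therefore does not rank.

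Fold changes were taken as FPKM ratios with no pseudocount, because part of the deposited fold change column held spreadsheet errors. The depth is unknown; among 4113 entries under 0.5 FPKM the ratio Hdac3-deleted over wild type was most often 1.14, in 63 entries within 0.0005 log2 units. The p-values measure only the spread that the authors' model saw between 2 libraries per genotype, which the labels do not say came from separate experiments.

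The members and the gene lists were chosen with earlier results of these data known. Of 232 list genes, 225 matched an entry, 5 by an older symbol. The text names all 10 members, up to 4 called genes per list by q-value and then fold, up to 2 abundant genes of lists with none called, and the nearest entries within 50 kb. Other genes named were chosen after their values were seen. No gene is named for likeness of pattern, since 1 value per genotype cannot rank it. The calculation of intervals and adjusted p-values was checked on simulated normal noise with the standard errors derived here. That check does not test the authors' model. Alternatives varied the q-value threshold, a minimum fold, a minimum level, pseudocounts, centring, the p-value and overlapping entries. Calculations used scipy 1.17.1, numpy 2.4.6 and pandas 2.3.3, and plots matplotlib 3.10.9, under Python 3.11.15.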

Additional observations from a re-analysis of the deposited data

How the results depend on the processing

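At a q-value threshold of 0.01, and likewise by a normal approximation to the test statistic, 1 of the 10 genes was called lower, namely Gfi1b, in place of 3. Over the 14 lists around them, 16 genes were called higher and 24 lower, and the higher count was 8 at 0.01 and 6 by the normal approximation. The p-values of the approximation differ from the authors', and the cause was not tested. By the approximation, 335 of all tested entries were called lower, against 525 by the authors' q-value. Adding 1 FPKM gave log2 fold changes of -1.13 for Gfi1b and -0.40 for Gata2, because the pseudocount is large beside their values. With at least 1 FPKM required in a genotype, Gata2 left the set, and 2 genes were called lower. Of 478 recomputed log2 fold changes of named genes, 460 kept their direction and side of the threshold. Many of these could not change side, because the pseudocount, centring, minimum level and overlap settings reused the authors' calls. The other 18 lost the call, 8 of 54 at 0.01 and 10 of 54 by the approximation. Besides Gata2 and Gfi1, both settings ended the calls of Hemgn, Il5ra, Meis1, Tcf7, Eomes and Vpreb1, and the approximation alone those of Hoxa9 and Dntt. Of the B-lineage markers not among these, Igll1, Pax5 and Blnk lost their calls under both. Centring moved all log2 fold changes by 0.02. Leaving out a replicate was not run, since values per library were not used here. No paired analysis was possible because the table holds 1 value per genotype. Gata1, Gata2, Klf1 and Tal1 stayed under 1 FPKM in both genotypes, and at that level the unknown depth limits what can be read from them.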

Other observations

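The 6 relatives of the 10 genes that the authors did not test were near 0. Gata4 was listed at 0 in both genotypes, Gata5 at 0.0201 FPKM in Hdac3-deleted and 0.0169 FPKM in wild-type cells, and Gata6, which acts in heart and gut, at 0 in Hdac3-deleted and 0.0511 FPKM in wild-type cells. Zfpm2 was listed at 0.00786 FPKM in Hdac3-deleted and 0 in wild-type cells. Tal2 was listed at 0 in Hdac3-deleted and 0.0923 FPKM in wild-type cells, and Lmo3 at 0.0797 FPKM in Hdac3-deleted and 0.210 FPKM in wild-type cells. Lmo1, which like Lmo2 can join TAL1 to GATA factors, was tested, at 1.25 FPKM in Hdac3-deleted and 1.34 FPKM in wild-type cells, and did not pass. Trps1, a repressor with a GATA-type zinc finger, was tested, at 1.75 FPKM in Hdac3-deleted and 1.74 FPKM in wild-type cells, and did not pass.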
